A study of Mus musculus with 28 samples.

Results

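The comparison described here sets exosome-treated CTLL2 cells at 0.5 h, the earliest time sampled after exosomes were added, against untreated CTLL2 cells at 0 h. CTLL2 is a mouse cytotoxic T-cell line that needs interleukin-2 (IL-2) to grow, and B16F0 is a mouse melanoma line whose exosomes, small vesicles that cells release, were the agent. The libraries were taken by treatment and time from the sample titles, which gave 7 of the 28 RNA sequencing libraries. The series asks how B16F0 exosomes change the transcriptome of cytotoxic T cells over 8 h.

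The exosome-treated 0.5 h group (n = 3) received fresh complete medium with B16F0 exosomes in PBS at 0.2 mg/ml and was collected 0.5 h later. The untreated 0.5 h group (n = 3) received fresh medium without exosomes, and no PBS for it is named in the labels. The untreated 0 h group (n = 4) is the start of the experiment. All 3 groups carry the strain label C57BL/6, had grown in complete medium for 24 h before the start, and are called biological replicates by the series. Exosome treatment at 0.5 h thus differs from 0 h by the fresh medium, by 0.5 h of time and by the exosomes with their PBS. These cannot be told apart in that comparison. The untreated 0.5 h group shares the medium change and the time, so its values are given beside most of those of the exosome-treated group. Replicate 1 of each group belongs to batch 1 of the sample descriptions and all other replicates belong to batch 2.

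Immediate early genes are genes whose transcription starts within minutes of a stimulus without new protein synthesis. Many encode transcription factors of the FOS, EGR and MYC families, and in T cells several cytokine genes, such as Tnf, react on the same scale. The answer is braked by feedback genes: DUSP phosphatases and Sprouty proteins act on the MAP kinase ERK pathway, and SOCS proteins act on the JAK-STAT pathway through which IL-2 and other cytokines signal.

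Recovered reads, the whole reads behind the deposited normalized counts, numbered 6072984 to 15404416 in the exosome-treated 0.5 h libraries, 14859064 to 16825990 in untreated 0.5 h and 10587840 to 16107682 in untreated 0 h. Exosome replicate 1 was the shallowest of all 28 libraries. A value of 0 allows for up to 3 reads, or 2.67 to 7.47 normalized counts in these 10 libraries. All 15 T-cell identity markers, Cd3e, Gzmb and Il2ra among them, were above 0 in every group. None of the 15 was called, where 0.614% of all genes tested were. The summed level of the 19 skeletal muscle markers ran from 1966 to 5518 normalized counts in exosome-treated 0.5 h, from 1948 to 3185 in untreated 0.5 h and from 1759 to 3969 in untreated 0 h. Acta1, skeletal muscle actin, had 194, 0.978 and 327 normalized counts in exosome replicates 1, 2 and 3, at most 3.01 in untreated 0.5 h and at most 2.88 in untreated 0 h. At later times Acta1 reached 229 and 415 in exosome-treated 2 h and 4 h, and 136 and 206 in untreated 2 h and 8 h. It was at most 2.09 in exosome-treated 8 h and 3.44 in untreated 4 h. The muscle sum of exosome replicate 2 was 1966, within the range of the untreated libraries, and results with that replicate alone are given with the within-batch values.

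Of 14828 genes tested, 83 were higher and 8 were lower in exosome-treated cells at 0.5 h than at 0 h (limma with a batch term, Benjamini-Hochberg adjusted p under 0.05), together 0.614% of genes tested and 0.054% for the lower ones. The lower count was the less stable: it was 2 without 0 h replicate 4, 3 without 0 h replicate 2 or 3, 4 without exosome replicate 1, and 4 in edgeR and in DESeq2. Those 83 higher genes fell into 2 kinds by their level at the start. For 45 of them the 0 h mean was at least 10 normalized counts, and these hold cytokines, immediate early factors and signalling feedback genes, with a median log2 fold change of 0.70. The other 38, the immediate early factors Fos and Egr2 among them, averaged under 10 at 0 h. Their median log2 fold change was 3.84, and their median level was 16.7 normalized counts in exosome-treated cells. All exosome-treated libraries lay above all 0 h libraries for 33 of the 45 and for 36 of the 38, where 3.76% of all genes tested did. These libraries also chose the genes, so the counts are a description. The replicate block gave 148 higher and 20 lower genes. Untreated 0.5 h against the same 0 h libraries gave 25 higher and 3 lower genes, and 50 and 5 with the replicate block. RNA that the vesicles brought with them was not separated from the cells' own RNA in any treated library, and in bulk RNA fewer cells of a type and less RNA per cell cannot be told apart.

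**Figure D1:**
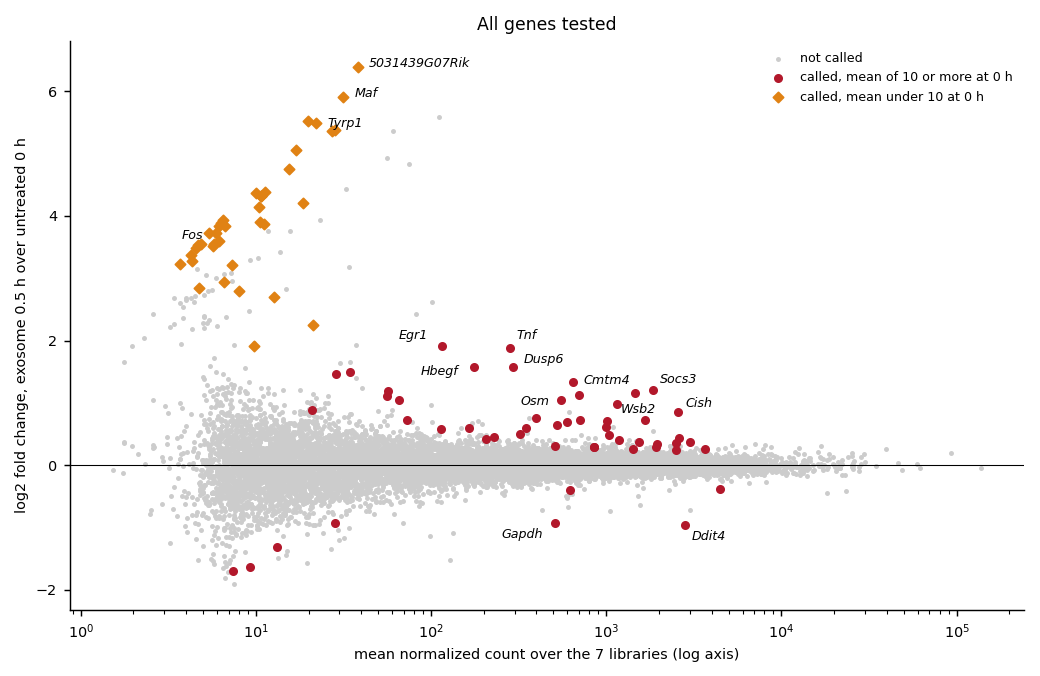
Log2 fold change of exosome-treated 0.5 h over untreated 0 h against the mean normalized count over the 7 libraries (log axis), 1 point per gene. The 45 called genes with a mean of 10 or more at 0 h lie at fold changes of up to 1.91 on the log2 scale, while the 38 called genes under 10 at 0 h reach 6.40.

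Among secreted and membrane-bound signals, 6 of the 19 cytokine and chemokine genes tested were higher in exosome-treated cells at 0.5 h than at 0 h, and none was lower. They were Tnf, Hbegf, Ifng, Osm, Il24 and Fasl. Over all genes tested 0.56% were called higher and 0.054% lower in this comparison. The list's median log2 fold change was 0.11, beside 0.0015 over all genes tested. The untreated 0.5 h libraries, tested against the same 0 h libraries, gave 5 higher members, 0 lower ones and a median of 0.16, where 0.189% of all genes were called and 0.0202% were called lower.

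Tnf, the gene of tumour necrosis factor, had 419, 551 and 476 normalized counts in exosome-treated 0.5 h, 417, 476 and 463 in untreated 0.5 h and 134, 126, 118 and 141 in untreated 0 h. The 6 libraries at 0.5 h lay above the 4 at 0 h with no overlap, and the treated and untreated 0.5 h values overlapped. The mean was 482 ± 66.7 (SD, n = 3) in exosome-treated 0.5 h against 129.8 ± 10.3 (SD, n = 4) at 0 h, a log2 fold change of 1.89 ± 0.12 (SE; limma adjusted p = 4.09e-10). Untreated 0.5 h against 0 h gave 1.80 (limma adjusted p = 1.33e-09). Tnf (ENSMUSG00000024401.14) lies on chromosome 17 of GRCm38 from 35199381 to 35202007, minus strand.

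Ifng, the gene of interferon gamma (ENSMUSG00000055170.3, chromosome 10 from 118441046 to 118445892, plus strand), had 84.7, 78.2 and 90.5 normalized counts in exosome-treated 0.5 h, 82.3, 99.5 and 56.9 in untreated 0.5 h and 41.8, 38.9, 37.0 and 28.7 at 0 h. Every 0.5 h library was above every 0 h library, and the log2 fold change over 0 h was 1.19 ± 0.19 in exosome-treated cells (SE; limma adjusted p = 0.000352) and 1.07 in untreated cells. Osm encodes oncostatin M, an IL-6 family cytokine. It had 835, 795 and 713 normalized counts in exosome-treated 0.5 h, 837, 709 and 667 in untreated 0.5 h and 449.9, 354, 352 and 347 at 0 h, and its log2 fold change over 0 h was 1.05 ± 0.10 in exosome-treated cells (SE; limma adjusted p = 1.12e-07) and 0.96 in untreated cells.

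Hbegf encodes a ligand of the EGF receptor that is released from the cell surface. It had 207, 382 and 266 normalized counts in exosome-treated 0.5 h, 249, 282 and 272 in untreated 0.5 h and 80.8, 115, 91.6 and 95.7 at 0 h, with a log2 fold change over 0 h of 1.57 ± 0.15 in exosome-treated cells (SE; limma adjusted p = 3.28e-07) and 1.52 in untreated cells. Il24, an IL-10 family cytokine, averaged 517 ± 118 normalized counts in exosome-treated 0.5 h, 496 ± 63.8 in untreated 0.5 h (SD, n = 3 each) and 307 ± 29.1 at 0 h (SD, n = 4). Its log2 fold change over 0 h was 0.98 in batch 2 and 0.17 in batch 1 of exosome-treated cells, and 0.72 in untreated cells over both batches. Fasl, the death-receptor ligand of cytotoxic cells, rose by 0.41 on the log2 scale (limma adjusted p = 0.0374), and untreated 0.5 h gave 0.36 (limma adjusted p = 0.306).

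A pair of cytokine genes came close to the threshold. Lta, lymphotoxin alpha, averaged 804 ± 96.2 normalized counts in exosome-treated 0.5 h, 804 ± 64.5 in untreated 0.5 h (SD, n = 3 each) and 466 ± 175 at 0 h (SD, n = 4), with a log2 difference of 0.85 (limma adjusted p = 0.0521). Its 0 h library of batch 1 had 727, beside 357, 386 and 395 in batch 2, and the difference was 1.14 in batch 2 and 0.01 in batch 1. Lif, an IL-6 family cytokine, gave 0.65 (limma adjusted p = 0.0746) and was chosen after its values were seen. Of 36 list members in the table, 17 did not reach 10 normalized counts in 3 libraries and were not tested. The chemokines Ccl3 and Ccl4 were among these, at no more than 1.10 and 7.82 normalized counts in exosome-treated 0.5 h, at 1.00 and 4.02 in untreated 0.5 h and at 0 and 1.85 at 0 h. None of the 21 cytokine receptor genes tested was called, where 0.614% of all genes tested were. Their log2 differences ran from -0.29 for Il10ra to 0.26 for Tnfrsf9.

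**Figure D2:**
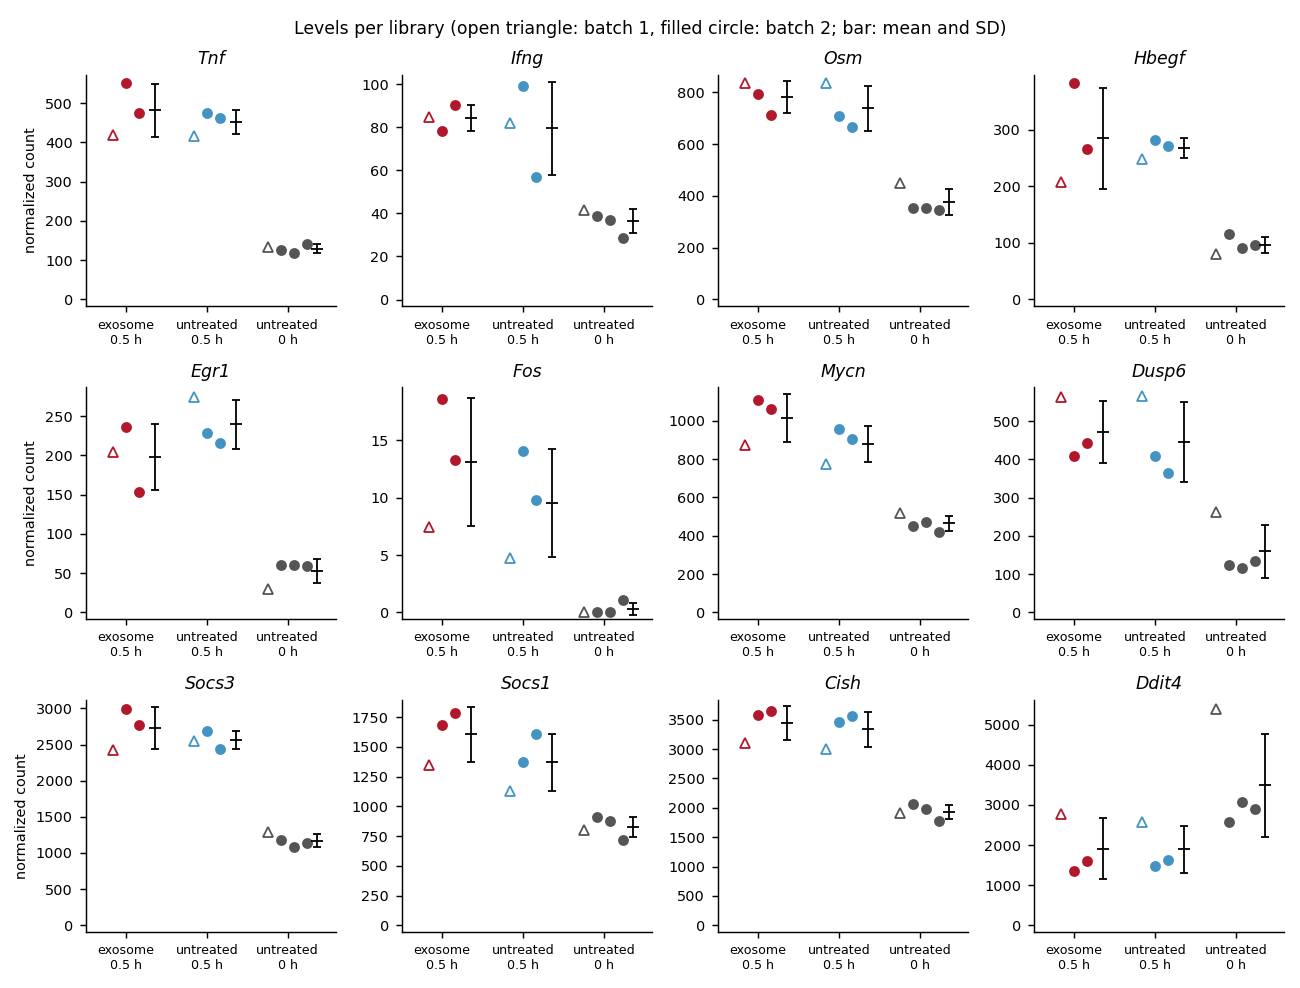
Normalized counts per library of 12 genes in exosome-treated 0.5 h, untreated 0.5 h and untreated 0 h (open triangle: batch 1; filled circle: batch 2; bar: mean and SD, n = 3, 3 and 4). Tnf, Socs3 and Cish stand higher in every 0.5 h library than in every 0 h library, with or without exosomes.

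Among immediate early transcription factors, Egr1, Egr2, Fos and Mafg passed the test and the other members of their lists did not. Over all genes tested 0.614% were called. Egr1, a zinc-finger factor, had 204, 236 and 153 normalized counts in exosome-treated 0.5 h, 274, 228 and 216 in untreated 0.5 h and 30.3, 60.1, 60.2 and 59.6 at 0 h. The 0.5 h and 0 h libraries did not overlap. The log2 fold change over 0 h was 1.91 ± 0.22 in exosome-treated cells (SE; limma adjusted p = 4.43e-06) and 2.20 in untreated cells. Egr2, its relative, had 12.5, 19.6 and 14.4 normalized counts in exosome-treated 0.5 h, 7.57, 14.1 and 15.99 in untreated 0.5 h and 0, 9.43, 9.26 and 3.19 at 0 h (limma adjusted p = 0.0482). That call was lost without any one of the 3 exosome libraries or 0 h replicate 1 or 4, with limma adjusted p of up to 0.313. Nab1, Nab2, Nr4a2 and Nr4a3, the other 4 members of that list tested, gave log2 differences from -0.08 to 0.30 and were not called. Nr4a1, a nuclear receptor gene that antigen receptor signals induce, was not tested, with 2.21 normalized counts in exosome replicate 3 and 0 in exosome replicates 1 and 2 and in all 7 untreated libraries.

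Fos, the AP-1 subunit, had 7.47, 18.6 and 13.2 normalized counts in exosome-treated 0.5 h, 4.73, 14.1 and 9.77 in untreated 0.5 h and 0, 0, 0 and 1.06 at 0 h. It was close to absent at the start and low at 0.5 h in both arms. In recovered reads this was 34 in exosome-treated 0.5 h against 1 at 0 h, a depth-corrected ratio of 52.0 with an exact 95% interval of 8.72 to 2113 for counting error only. The limma log2 fold change was 3.55 ± 0.56 (SE; adjusted p = 0.000445). The remaining AP-1 members did not follow: of 14 tested, only Mafg, a small MAF protein, joined Fos past the threshold, at 0.38, and without exosome replicate 2 or 3 it did not (limma adjusted p of up to 0.0803). In untreated 0.5 h Mafg gave 0.13 (limma adjusted p = 1.000). Junb averaged 3823 ± 538 normalized counts in exosome-treated 0.5 h, 3577 ± 667 in untreated 0.5 h (SD, n = 3 each) and 3989 ± 816 at 0 h (SD, n = 4), with a limma adjusted p of 0.921. Jun gave -0.11 and Fosb gave 0.98 (limma adjusted p = 0.605), with Fosb at no more than 22.4 normalized counts in any of these libraries.

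The MYC-family genes Mycn and Myc were higher. Mycn had 874, 1109.8 and 1059 normalized counts in exosome-treated 0.5 h, 776, 955 and 907 in untreated 0.5 h and 516, 450.2, 474 and 421 at 0 h, with a log2 fold change over 0 h of 1.13 ± 0.10 in exosome-treated cells (SE; limma adjusted p = 8.38e-08) and 0.93 in untreated cells. Mycn was chosen after its values were seen. Myc rose by 0.35 (limma adjusted p = 0.00277), with 0.38 in batch 2 and 0.28 in batch 1, and untreated 0.5 h gave 0.37 (limma adjusted p = 0.00504). None of 25 ribosome biogenesis and MYC target genes was called, where 0.614% of all genes tested were. Their median was -0.08. Odc1, the first enzyme of polyamine synthesis and a MYC target, gave 0.23 (limma adjusted p = 0.619), and Fbl, fibrillarin, gave -0.26 (limma adjusted p = 0.658).

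The list of other immediate early genes had 5 higher and 1 lower member among 34 tested, and a median of -0.01. Over all genes tested 0.56% were called higher and 0.054% lower. Plk3, a stress-responsive kinase, was higher by 1.11, Csrnp1, a nuclear factor, by 0.71, Cd69, the early activation antigen of lymphocytes, by 0.65, and Ier2 by 0.49. In untreated 0.5 h Csrnp1 gave 0.59 and Cd69 0.63, both called, while Plk3 gave 0.84 (limma adjusted p = 0.415) and Ier2 gave 0.28 (limma adjusted p = 1.000). Csrnp1 had 1231, 1333 and 1352 normalized counts in exosome-treated 0.5 h, 1234, 1181 and 1173 in untreated 0.5 h and 834, 775, 816 and 740.4 at 0 h, with no overlap between 0.5 h and 0 h (limma adjusted p = 3.51e-07). Ier2 lost its call without any one of the compared libraries except 0 h replicate 3 (limma adjusted p of up to 0.280), and Plk3 without exosome replicate 1 or 2 or 0 h replicate 3 or 4 (up to 0.109). Tgif1, a homeobox repressor, fell by 0.40 on the log2 scale, and its call was lost without exosome replicate 2 or 3 or 0 h replicate 2, 3 or 4 (up to 0.179). Untreated 0.5 h gave -0.34 for Tgif1 (limma adjusted p = 0.244). Rhob, a small GTPase gene that is itself an immediate early gene, was chosen after its values were seen. It averaged 2169 ± 188 normalized counts in exosome-treated 0.5 h, 2051 ± 122 in untreated 0.5 h (SD, n = 3 each) and 1302 ± 85.7 at 0 h (SD, n = 4), a log2 fold change of 0.73 (limma adjusted p = 2.81e-08).

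Feedback genes of the ERK pathway gave 3 higher members of 18 tested, Dusp6, Dusp4 and Spry4, and a list median of 0.16. Over all genes tested 0.56% were called higher. Dusp6 encodes a phosphatase that acts on ERK in the cytoplasm. It had 563, 408 and 444 normalized counts in exosome-treated 0.5 h, 565, 409 and 363 in untreated 0.5 h and 262, 125, 117 and 133 at 0 h. Batch 1 was the highest library of each group, and the log2 fold change over 0 h was 1.76 in batch 2, 1.10 in batch 1 and 1.58 ± 0.13 overall (SE; limma adjusted p = 2.81e-08). Untreated 0.5 h gave 1.49. Dusp4, a nuclear phosphatase of the same family, was higher by 0.70, with 0.89 in batch 2 and 0.21 in batch 1. Spry4, a Sprouty inhibitor of the pathway, was higher by 0.51. Both were also called in untreated 0.5 h, Dusp4 at 0.68 and Spry4 at 0.40. Dusp1, chosen after its values were seen, missed the threshold at 0.71 (limma adjusted p = 0.0637), with 225 normalized counts in the batch 1 library at 0 h beside 113, 122 and 126 in batch 2. Map3k8, a kinase upstream of ERK that was also chosen after its values were seen, rose by 0.61 (limma adjusted p = 0.000242), and untreated 0.5 h gave 0.60 (limma adjusted p = 0.000900).

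JAK-STAT feedback genes were also among the risers. Of 25 genes in the list of SOCS, PIM and IL-2-STAT5 targets, 5 were higher (Socs3, Osm, Socs1, Cish and Pim1) and none was lower. The list median was 0.13. Over all genes tested 0.56% were called higher and 0.054% lower. Socs3, an inhibitor of JAK kinases, had 2429, 2996 and 2768 normalized counts in exosome-treated 0.5 h, 2551, 2688 and 2444 in untreated 0.5 h and 1292, 1176, 1076 and 1135 at 0 h. All 6 libraries at 0.5 h were above all 4 at 0 h. Socs3 (ENSMUSG00000053113.3) lies on chromosome 11 of GRCm38 from 117966079 to 117970047, minus strand. The log2 fold change over 0 h was 1.21 ± 0.09 in exosome-treated cells (SE; limma adjusted p = 3.84e-09) and 1.12 in untreated cells.

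Socs1, a relative that also inhibits JAK kinases, had 1345, 1681 and 1787 normalized counts in exosome-treated 0.5 h, 1130.1, 1371 and 1609.9 in untreated 0.5 h and 800.4, 909.7, 878 and 720.2 at 0 h. The log2 fold change over 0 h was 0.98 ± 0.10 in exosome-treated cells (SE; limma adjusted p = 1.11e-06) and 0.74 in untreated cells. Cish, the SOCS-family gene induced by STAT5 (ENSMUSG00000032578.7, chromosome 9 from 107296026 to 107302784, plus strand), had 3109, 3575 and 3643 normalized counts in exosome-treated 0.5 h, 2999, 3466 and 3556 in untreated 0.5 h and 1914, 2063, 1974 and 1770.2 at 0 h. Its log2 fold change over 0 h was 0.85 ± 0.11 in exosome-treated cells (SE; limma adjusted p = 1.52e-05) and 0.81 in untreated cells. Pim1, a kinase gene downstream of STAT5, was higher by 0.26, with 0.36 in batch 2 and 0.007 in batch 1. Its call was lost without exosome replicate 2 or 3 or 0 h replicate 2, 3 or 4 (limma adjusted p of up to 0.252). Untreated 0.5 h gave 0.26 for Pim1 (limma adjusted p = 0.0608). Socs2, Socs4, Socs5, Socs6 and Socs7 lay between -0.14 and 0.15 and were not called.

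**Figure D3:**
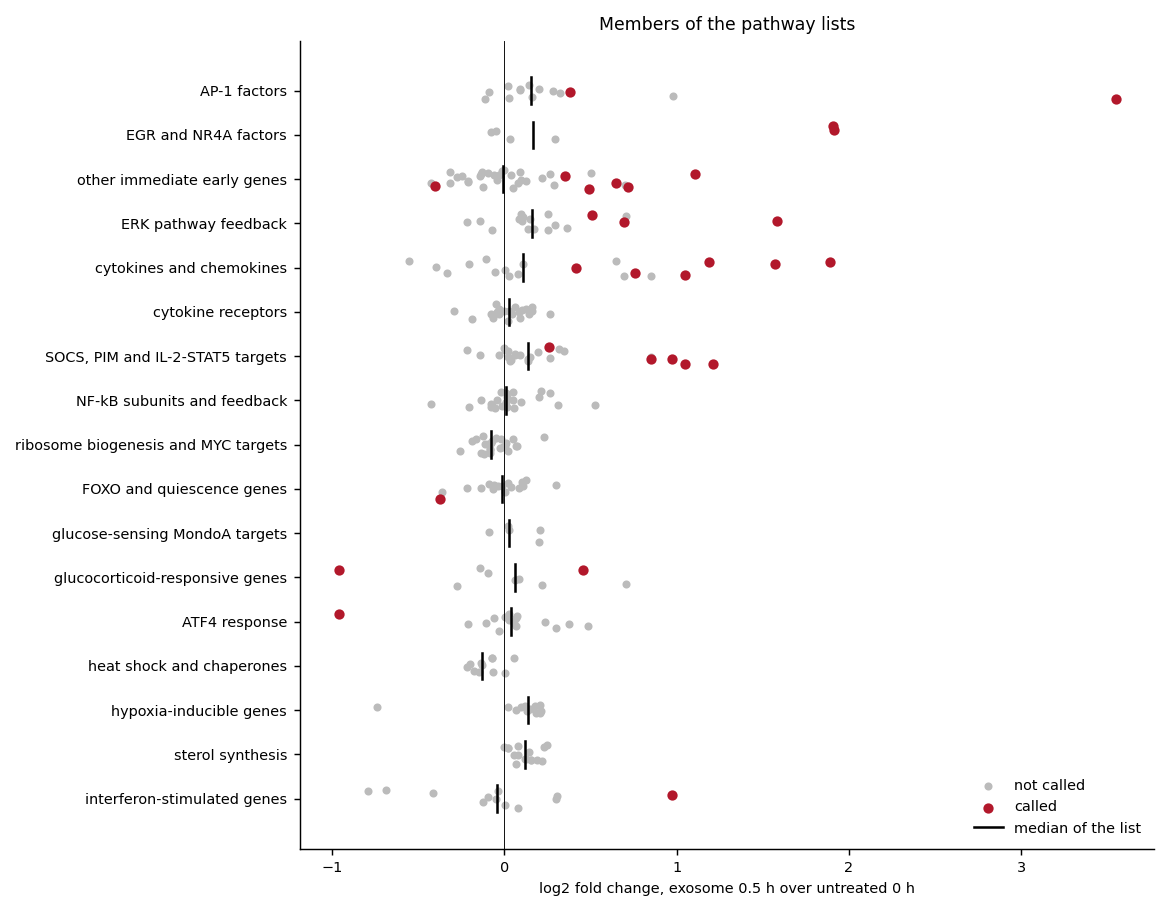
Log2 fold changes of exosome-treated 0.5 h over untreated 0 h for the tested members of 17 pathway lists (red: adjusted p under 0.05; grey: not called; black line: list median; vertical scatter within a list has no meaning). Called members sit above their list's median in the cytokine, AP-1 and EGR lists, and none is called among the 23 NF-kB genes. Of all genes tested 0.614% were called.

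The promoters of Cish, Socs3, Ifng and Tnf are shown because these genes rose together and their windows carry a STAT-type motif or a TATA box. The windows are RefSeq's on GRCm38.p6, 250 bases before and 50 bases after the annotated start, read on the strand of the gene. Capitals mark TTCNNNGAA, the core that STAT proteins bind, and TATAAA.
Cish, chr9:107296409-107296708, plus strand: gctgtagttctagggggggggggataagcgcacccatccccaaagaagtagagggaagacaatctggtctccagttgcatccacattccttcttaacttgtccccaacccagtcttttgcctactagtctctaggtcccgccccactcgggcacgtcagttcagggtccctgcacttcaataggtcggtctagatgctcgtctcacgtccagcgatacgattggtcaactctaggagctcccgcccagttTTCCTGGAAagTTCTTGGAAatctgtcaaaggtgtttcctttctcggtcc
Socs3, chr11:117969317-117969616, minus strand: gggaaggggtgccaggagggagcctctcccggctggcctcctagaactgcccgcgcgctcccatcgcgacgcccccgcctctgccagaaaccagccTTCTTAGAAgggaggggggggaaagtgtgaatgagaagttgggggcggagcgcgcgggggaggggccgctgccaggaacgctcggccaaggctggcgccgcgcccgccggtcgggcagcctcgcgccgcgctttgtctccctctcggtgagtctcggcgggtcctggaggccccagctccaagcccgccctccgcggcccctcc
Ifng, chr10:118440796-118441095, plus strand: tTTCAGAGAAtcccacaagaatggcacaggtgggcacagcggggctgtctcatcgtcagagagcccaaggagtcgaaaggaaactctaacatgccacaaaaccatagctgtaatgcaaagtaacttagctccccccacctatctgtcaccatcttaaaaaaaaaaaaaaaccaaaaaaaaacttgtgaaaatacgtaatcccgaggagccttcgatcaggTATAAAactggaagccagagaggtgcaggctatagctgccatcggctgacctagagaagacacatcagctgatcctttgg
Tnf, chr17:35201958-35202257, minus strand: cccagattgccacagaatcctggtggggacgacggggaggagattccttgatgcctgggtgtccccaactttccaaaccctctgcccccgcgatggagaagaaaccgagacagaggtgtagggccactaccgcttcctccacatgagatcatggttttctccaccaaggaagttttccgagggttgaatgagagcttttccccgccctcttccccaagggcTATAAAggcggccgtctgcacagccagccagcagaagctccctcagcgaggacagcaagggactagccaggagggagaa
In Cish the motif occurs in a pair of copies at the front of the RefSeq transcript, beginning at base 1 and at base 12 counted from the RefSeq start. In Socs3 it begins 154 bases and in Ifng 249 bases before the RefSeq start. The Cish and Socs3 windows lie wholly inside the GENCODE spans of these genes given above. Their RefSeq starts are thus downstream of the GENCODE gene starts, and the Socs3 motif is upstream only of the RefSeq start. The TATA box begins 30 bases before the start in Ifng and 29 in Tnf. Of the 45 higher genes at 10 or more counts at 0 h, 28 had a window, and 6 of them (21.4%) held TTCNNNGAA: Cish, Csrnp1, Ifng, Klf9, Nupr1 and Socs3. Among 27025 genes with windows 9.55% held it. TATAAA stood in 4 of the 28 (14.3%) against 9.77% of genes, the NF-kB motif core in 8 (28.6%) against 22.9%, the AP-1 core TGANTCA in 2 (7.14%) against 8.97%, the CRE TGACGTCA in 1 (3.57%) against 2.03% and the CArG box in 0 against 1.81%. Both strands were searched, and a match is a description of letters and no measure of binding.

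None of 23 NF-kB subunit and feedback genes tested was called in exosome-treated 0.5 h against 0 h, and 1 was higher in untreated 0.5 h against 0 h. Over all genes tested 0.614% and 0.189% were called in these comparisons, so none called among 23 genes is close to the share over all genes. Nfkbia, the inhibitor gene that NF-kB itself induces, had 349, 329.5 and 363 normalized counts in exosome-treated 0.5 h, 287, 337 and 375 in untreated 0.5 h and 277, 448, 387 and 424 at 0 h, a log2 difference of -0.08 (limma adjusted p = 0.972). Nfkbiz, an atypical member, was the one called in untreated cells, at 0.68 (limma adjusted p = 0.0111). In exosome-treated cells it gave 0.53 (limma adjusted p = 0.0637).

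Among stress and metabolic lists, no member was called of 11 heat shock genes, 12 hypoxia-inducible genes, 16 sterol synthesis genes and 5 glucose-sensing MondoA targets. With 0.614% of all genes tested called, none in lists this short is close to the share over all genes. The list medians were, in that order, -0.13, 0.14, 0.12 and 0.03. Among the members with the smallest p in each list, none of them called, were Chordc1 (-0.22) and Dnaja1 (-0.20) among heat shock genes, Ndrg1 (0.21) and Egln1 (0.20) among hypoxia-inducible genes, Insig1 (0.23) among sterol synthesis genes, and Txnip (0.20) and Slc2a1 (0.21, limma adjusted p = 0.752) among MondoA targets. The interferon-stimulated list had 1 called member of 12, Socs1, already described. Across all 17 lists, 26 of 268 tested genes were called (9.70%), where 0.614% of all genes were, and the lists were chosen with earlier results of these data known.

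Ddit4 was the clearest of the lower genes. It encodes REDD1, an inhibitor of mTORC1 that stress, glucocorticoids and ATF4 induce. Ddit4 (ENSMUSG00000020108.3, chromosome 10 from 59949669 to 59951834, minus strand) had 2770.1, 1354 and 1611 normalized counts in exosome-treated 0.5 h, 2565, 1484 and 1629 in untreated 0.5 h and 5399, 2585, 3076 and 2907 at 0 h. The batch 1 library was the highest in each group, and exosome-treated 0.5 h overlapped 0 h by value. The highest untreated 0.5 h value, 2565, was just below the lowest at 0 h, 2585. Within each batch every 0.5 h library was below every 0 h library. The log2 change over 0 h was -0.96 ± 0.11 in exosome-treated cells (SE; limma adjusted p = 6.37e-06), with -0.95 in batch 2 and -0.96 in batch 1, and it was -0.95 in untreated cells. Ddit4 was the only called member of the 16 ATF4 response genes, where 0.614% of all genes tested were called. Of 9 glucocorticoid-responsive genes it was the lower one and Klf9, a Kruppel-like factor, the higher one, at 0.46, a call lost without exosome replicate 1 or 2 or 0 h replicate 1, 2 or 4 (limma adjusted p of up to 0.359). Untreated 0.5 h gave 0.35 for Klf9 (limma adjusted p = 0.719).

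Cdkn1b, the cell cycle inhibitor p27, fell by 0.38 (limma adjusted p = 0.0156). Among 17 FOXO and quiescence genes Cdkn1b was the only called member, where 0.614% of all genes tested were called. It had 4006, 3727 and 3778 normalized counts in exosome-treated 0.5 h, 4792, 4089 and 3931 in untreated 0.5 h and 5799, 4253, 4649 and 4971 at 0 h. Its call was lost without exosome replicate 1 or 0 h replicate 4 (limma adjusted p of up to 0.219). Gapdh averaged 338 ± 14.6 normalized counts in exosome-treated 0.5 h, 372 ± 10.8 in untreated 0.5 h (SD, n = 3 each) and 643 ± 181 at 0 h (SD, n = 4), a log2 change of -0.93, with -0.67 in batch 2 and -1.50 in batch 1. Gapdh has many near-identical pseudogene copies, so its count is uncertain. Sema4b, a semaphorin gene, was low in all 3 groups, with 6.75 ± 3.84 normalized counts in exosome-treated 0.5 h, 13.5 ± 1.07 in untreated 0.5 h (SD, n = 3 each) and 18.1 ± 7.11 at 0 h (SD, n = 4). The remaining lower genes were Tgif1 and 3 predicted genes or pseudogenes.

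At later times of exosome treatment most of these genes had lower levels than at 0.5 h. Tnf averaged 482 ± 66.7, 199 ± 8.34, 178 ± 19.5 and 181 ± 32.3 normalized counts at 0.5, 2, 4 and 8 h of exosome treatment (SD, n = 3 each). Egr1 averaged 198, 72.9, 46.4 and 51.0, Dusp6 averaged 472, 179.9, 163 and 187, and Socs3 averaged 2731, 1423, 1239 and 1202. Mean levels at 2 h lay closer to those at 0.5 h for some cytokine genes than for others. Osm averaged 781, 406, 273 and 338 normalized counts, whereas Ifng averaged 84.5, 98.9, 66.0 and 57.5 and Il24 averaged 517, 486, 315 and 285 at the same times. At 2 h Ifng spanned 93.5 to 107 normalized counts in exosome-treated cells and 62.6 to 82.8 in untreated cells. Ddit4 averaged 1912, 1919, 2673 and 2658. These later levels are given as descriptions, with no test.

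**Figure D4:**
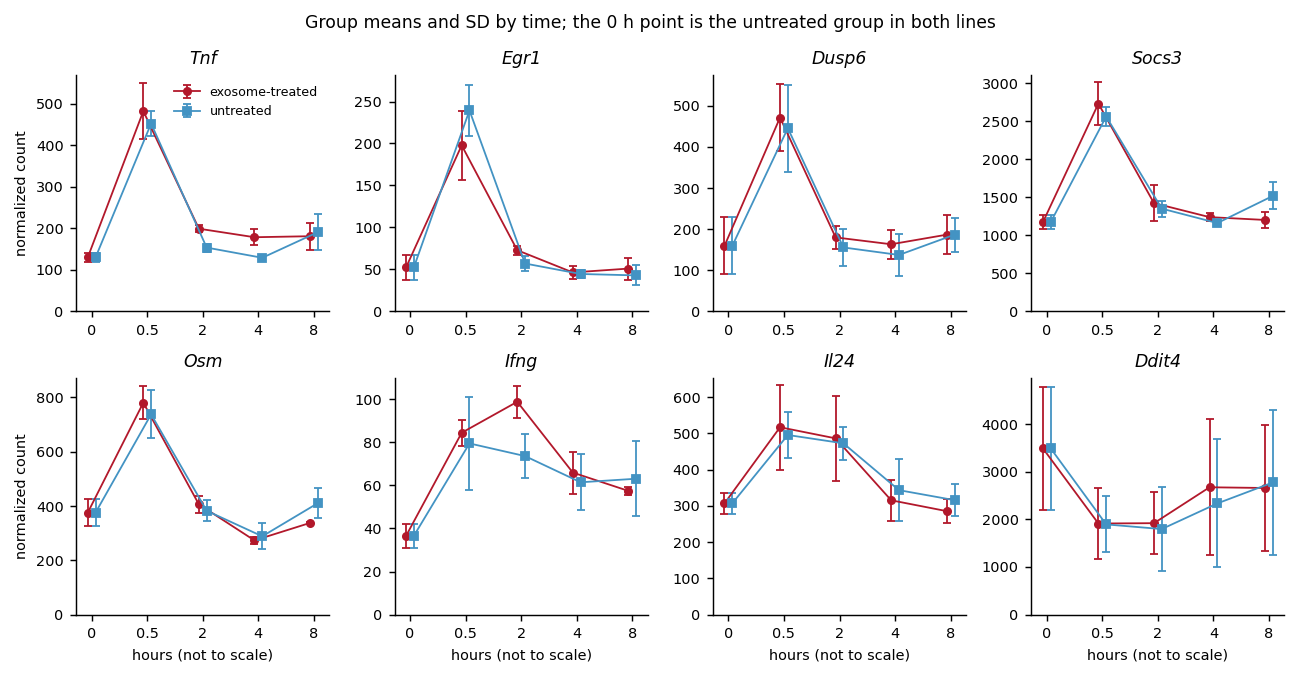
Mean normalized counts with SD from 0 to 8 h (5 times, axis not to scale) for exosome-treated and untreated cells, both drawn from the same untreated 0 h group (n = 4; n = 3 at later times). Tnf, Egr1, Dusp6, Socs3 and Osm peak at 0.5 h in both arms, while with exosomes Ifng is highest at 2 h and Il24 is 486 at 2 h beside 517 at 0.5 h. All 7 are above their 0 h mean at 2 h of exosome treatment.

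The closest test of the exosomes is exosome-treated against untreated cells at 0.5 h, where the medium change and the time are shared. The exosomes came in PBS, and no PBS is named for the untreated cells. Exosomes and PBS therefore cannot be told apart there. This comparison called 36 genes, all higher in exosome-treated cells, 0.243% of genes tested. With all 28 libraries and a pseudocount of 1, no gene was lower in limma, edgeR or DESeq2, with 371 higher and 268 lower at an unadjusted limma p under 0.05. Lower genes numbered 1 with a pseudocount of 5, 3 with the 10 libraries alone, 2 without exosome replicate 2 and 2 without exosome replicate 3. The replicate block gave 18 higher and 1 lower. No member of the 17 pathway lists was called in this comparison. For Tnf the log2 difference was 0.09 with a 95% interval of -0.18 to 0.35, for Egr1 -0.29 with -0.78 to 0.20, for Socs3 0.09 with -0.11 to 0.29 and for Dusp6 0.09 with -0.20 to 0.39. For Ifng it was 0.12 with -0.29 to 0.53, for Osm 0.09 with -0.13 to 0.30, for Cish 0.04 with -0.19 to 0.28 and for Ddit4 -0.01 with -0.26 to 0.24. Each of these intervals includes no difference, and any difference within its bounds remains compatible with these libraries. Socs1 was unlike these, at 0.23 with 0.0046 to 0.46, an interval wholly above no difference before adjustment. After adjustment Socs1 was not called.

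Among the 45 higher genes already expressed at 0 h, 4 differed between exosome-treated and untreated cells at 0.5 h: Wsb2, Cmtm4, Sec22c and the predicted gene Gm26809. Without the genes that were low in untreated cells, and so with fewer genes in the adjustment, Wsb2 was still called (limma adjusted p = 0.00706), and Cmtm4, Sec22c and Gm26809 were not, each at a limma adjusted p of 0.0941 with the same log2 difference. Wsb2, a SOCS-box protein gene chosen after its values were seen, had 1193, 2677 and 2615 normalized counts in exosome-treated 0.5 h, 920.2, 918 and 998 in untreated 0.5 h and 747, 1059, 1017 and 936 at 0 h. All exosome-treated libraries were above all others. The log2 difference from untreated 0.5 h was 1.10 ± 0.16 (SE; limma adjusted p = 0.000363). Cmtm4, a MARVEL-domain membrane protein gene, had 458, 1353 and 1194 normalized counts in exosome-treated 0.5 h, 363, 385 and 383 in untreated 0.5 h and 388, 410.1, 326 and 370.2 at 0 h. Its log2 fold change over 0 h was 1.79 in batch 2 and 0.24 in batch 1, and this difference between batches was past the threshold (limma adjusted p = 0.00273), as it was for 6 genes or 0.0405% of those tested. Batch 1 holds 1 library of each group, so that test assumes that these vary like the libraries of the other groups. Sec22c, a vesicle trafficking gene chosen after its values were seen, gave 0.36 against untreated 0.5 h (limma adjusted p = 0.0126) and 0.31 against 0 h, where the call was lost without exosome replicate 2 or 3 or 0 h replicate 2, 3 or 4 (limma adjusted p of up to 0.245).

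The 38 genes that averaged under 10 at 0 h were the second kind of riser. Of these, 32 were also called against untreated 0.5 h. Fos was the 1 also called in untreated 0.5 h against 0 h. Fos and Egr2 were not called against untreated 0.5 h. The depth-corrected ratio of exosome-treated to untreated 0.5 h reads was 1.55 for Fos, with an exact 95% interval of 0.918 to 2.62. For Egr2 that interval was 0.809 to 2.07. Both intervals cover counting error only. A gene had to reach 10 normalized counts in 3 libraries to be tested, and 36 of the 38 did so only with exosome-treated libraries, so a higher level was in part a condition for being tested. For 24 of them no read was found in any 0 h library, and for 15 none was found in any 0 h or untreated 0.5 h library. The predicted protein-coding gene 5031439G07Rik had 37.4, 120.3 and 109 normalized counts in exosome-treated 0.5 h and 0 in all 7 untreated libraries. Against a floor of 3 reads over the whole 0 h group its pooled exosome reads were 120.7-fold higher. The exact 95% lower limit of the ratio was lower, at 97.5 for counting error only. Tyrp1, an enzyme of melanin synthesis in melanocytes, had 14.9, 76.3 and 64.0 normalized counts in exosome-treated 0.5 h and 0 in the 7 untreated libraries. On the same floor its pooled reads were 72.3-fold higher than at 0 h, with an exact lower limit of 58.1. Maf, a bZIP transcription factor gene, had 57.3, 80.2 and 82.8 normalized counts in exosome-treated 0.5 h, 0 in all untreated 0.5 h libraries and 1.06 in one of the 4 libraries at 0 h. Ryk, a Wnt co-receptor gene, had 12.5, 94.8 and 82.8 in exosome-treated 0.5 h, 0 in untreated 0.5 h and 1.18 in one library at 0 h. Tyrp1, Ryk and 5031439G07Rik were each lower in the batch 1 exosome library than in both batch 2 libraries.

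Melanocyte markers accompany them. Tyrp1, Trpm1, Mitf and Dct were called in exosome-treated 0.5 h against 0 h and against untreated 0.5 h. All 4 reached the filter on low values only through exosome-treated libraries, as did 5 of the 7 markers tested of 14, so these calls are a description. Dct had 12.5, 29.3 and 35.3 normalized counts in exosome-treated 0.5 h, at most 3.01 in untreated 0.5 h and at most 3.19 at 0 h. Trpm1 had 2.49, 19.6 and 20.97 in exosome-treated 0.5 h, at most 0.946 in untreated 0.5 h and 0 at 0 h, and Mitf had 14.9, 6.84 and 12.1 in exosome-treated 0.5 h and 0 in all 7 untreated libraries. The summed level of the 14 ran from 112 to 349 normalized counts in exosome-treated 0.5 h, from 46.3 to 157 in untreated 0.5 h and from 46.1 to 173 at 0 h. Gpnmb, which was not called, had 29.9 to 157 normalized counts in exosome-treated 0.5 h and 30.3 to 154 at 0 h. Tyr and Sox10, which define the lineage, were at 0 in all 7 untreated libraries, and in exosome-treated 0.5 h they reached 6.62 and 4.98. Macrophage and dendritic cell markers (4 tested of 12), B cell markers (3 of 8), fibroblast and matrix markers (7 of 11) and muscle markers (18 of 19) held no called gene. Over all genes tested 0.614% were called. The muscle list, with no called gene, had a median log2 difference of 2.95.

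**Figure D5:**
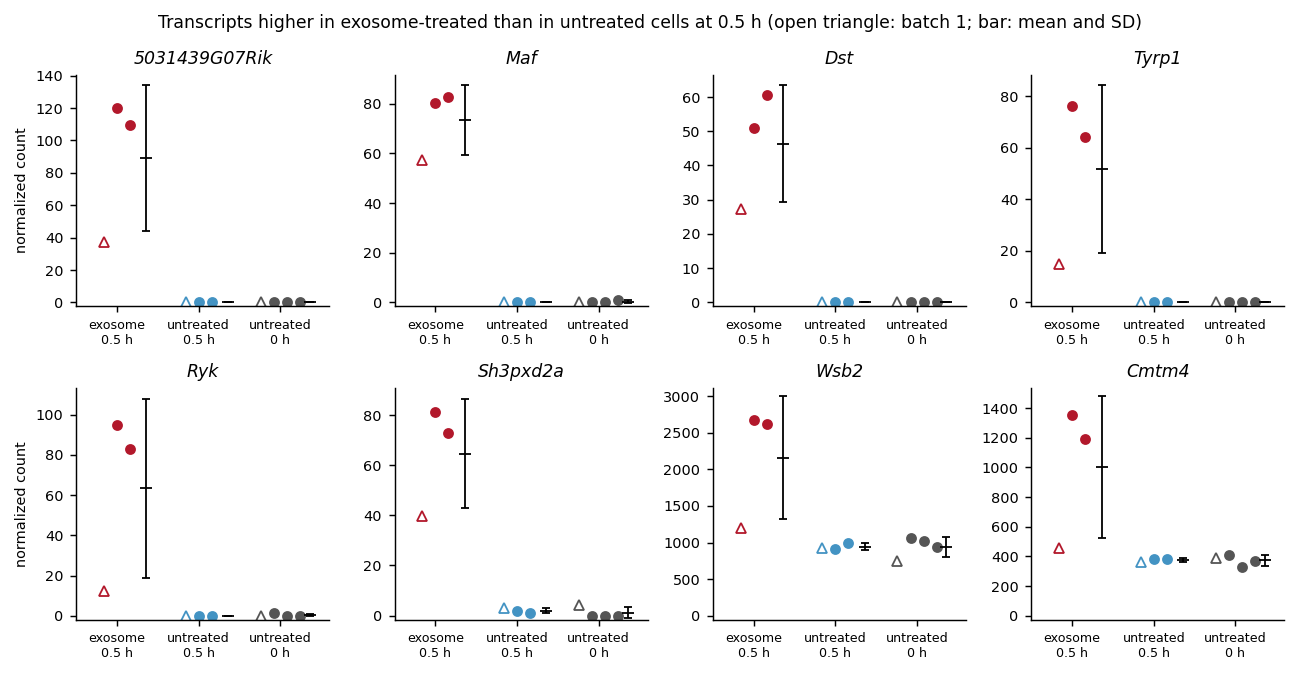
Normalized counts per library of 8 genes that were higher in exosome-treated than in untreated cells at 0.5 h (open triangle: batch 1; filled circle: batch 2; bar: mean and SD, n = 3, 3 and 4). The first 6 are at 0 or a few counts in all 7 untreated libraries, and Wsb2 and Cmtm4 rise above an expressed level, mainly in the 2 batch 2 exosome libraries.

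Within batches, the exosome-treated 0.5 h against 0 h comparison called 118 higher and 7 lower genes in batch 2 (2 against 3 libraries). Batch 1 sets 1 library against 1, so only its fold changes are given. All 45 higher genes expressed at 0 h had a positive log2 fold change in both batches, as did 36 of the 38 others. The same libraries called these genes as higher, so this agreement in sign is a description. Tnf gave 1.99 in batch 2 and 1.63 in batch 1, Egr1 gave 1.65 and 2.71, Socs3 gave 1.35 and 0.91, and Cish gave 0.90 and 0.70. With exosome replicate 2 alone in its group, assumed to vary like the libraries of the other groups, 55 genes were higher and 1 was lower. Of the 45 named genes called, 27 were still called and 18 were not. Tnf, Egr1, Dusp6, Hbegf, Socs3, Socs1, Osm, Cish, Mycn and Ddit4 were among those still called. Among those that were not, the log2 fold change was 3.81 for Fos (limma adjusted p = 0.0514), 1.11 for Ifng (0.138), 0.39 for Myc (0.143), 0.62 for Map3k8 (0.0543), 0.47 for Spry4 (0.229), 0.41 for Mafg (0.197), 1.21 for Plk3 (0.366), -0.71 for Gapdh (0.241) and -0.31 for Cdkn1b (0.970).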

How the data were processed

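Per the labels' protocols, TRIzol RNA with an integrity number above 8 was made into TruSeq RNA Kit V2 libraries and sequenced in pairs. The build listed in the submitters' processing notes is GRCm38.p2 and the tools listed are STAR 2.4.2, featureCounts 1.5.0, DESeq2, CASAVA 1.8.4 and R 3.3.2. Their settings, the annotation release and the strand rule are not given in these sources, so antisense and near-identical genes are uncertain. The authors deposited a normalized signal, read counts over a size factor, for 30608 genes. Whole reads were recovered from the spacing of the values, and 100% of values came out whole (tolerance 0.01 read). Symbols and positions came from GENCODE M21 (30439 identifiers found).

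Testing used limma 3.58.1 (R 4.3.3) with a pseudocount of 1 on the log2 scale and kept genes that reached 10 normalized counts in 3 libraries. The model had group means and batch over all 28 libraries (18 residual degrees of freedom) and Benjamini-Hochberg adjustment over 14828 genes. Fold changes are on that scale, which understates changes of low genes. Within-batch values came from 1 mean per group and batch. edgeR 4.0.16 and DESeq2 1.42.0 on recovered reads called 89 and 114 genes in exosome-treated 0.5 h against 0 h. The model was also tested on simulated data. Deviations of same-numbered libraries from their group means correlated at 0.606, 0.214 and 0.251 between exosome-treated 0.5 h and 0 h, the first being the batch 1 pair. Within batch 2, libraries with different numbers correlated at 0.218 to 0.295, so same-numbered ones there stood out no further. The replicate number from the titles was used as a block in an alternative fit, in which number 1 is batch 1. Intervals and the floor of 3 reads cover counting error only. No pair of libraries was treated as 1, since pairs within the 3 groups differed by 2.97 to 35.6 times counting noise.

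The comparison, gene lists and named genes were chosen with earlier results of these data known. Named genes were 19 reported whatever their values, the 12 largest called changes each way with the same direction in both batches and a mean of 50 or more in the higher group, the 4 largest differences from untreated 0.5 h, the 4 genes with the smallest p between batches, and per list up to 5 called members or the 2 with the smallest p. Predicted genes, RIKEN clones and pseudogenes were left out of the first of these rankings. The result of 1 gene that this rule names is not reported here.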

Additional observations from a re-analysis of the deposited data

Results flagged for a closer look

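In the untreated 0 h group, 1 of 4 libraries stood apart from the rest for 21 of 71 genes examined, where chance alone would put about 1 in 20 groups apart. The library was replicate 1, the single batch 1 library, for 18 of the 21. Its normalized counts were higher than in the other 3 libraries for Junb (5207), Lta (727), Sh3pxd2a (4.33), Dusp6 (262), Arrb1 (43.3), Gapdh (911), Arnt2 (2404), Osm (449.9), Il24 (350.4), Tnfrsf9 (12438), Il10ra (4239.7), Odc1 (3594), Ndrg1 (2078), Dusp1 (225) and Lif (186). They were lower for Egr1 (30.3), Tgif1 (558) and Map3k8 (694). For Fos and Maf replicate 4 stood apart with 1 read each (1.06 normalized counts), and for Ryk replicate 2 did with 1 read (1.18).

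The exosome-treated 0.5 h against 0 h change differed between batches, as batch 2 minus batch 1 on the log2 scale, by 4.35 for Fbxo24, 3.29 for Map7, 1.55 for Cmtm4 and 0.79 for Arnt2 (limma adjusted p = 0.00262, 0.0151, 0.00273 and 0.0162). Batch 1 is 1 library against 1, assumed to vary like the other groups. Fbxo24 and Map7 had 0 normalized counts in the batch 1 exosome library, the shallowest, where 0 allows for up to 7.47, so their differences depend on the pseudocount. In the batch 2 exosome libraries Fbxo24 had 23.5 and 19.9 and Map7 had 13.7 and 17.7.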

How the results depend on the processing

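For exosome-treated 0.5 h against 0 h, where 91 genes were called, no filter on low values gave 171 genes (160 higher, 11 lower), a filter of 50 normalized counts 45 (41 and 4), the 10 libraries of the 3 groups alone 287 (228 and 59), no batch term 52 (51 and 1), the replicate block 168, exosome replicate 2 alone 56 and leaving out genes under 10 in untreated libraries 40 (36 and 4). For untreated 0.5 h against 0 h, with 28 genes, the 10 libraries alone gave 62, no batch term 12, the replicate block 55 and edgeR within batch 2, chosen after seeing the data, 43. For exosome-treated against untreated at 0.5 h, with 36 genes, no filter gave 80, the filter of 50 gave 8, the replicate block 19 and leaving out genes low in untreated libraries 1. For the difference between batches, with 6 genes, a pseudocount of 0.5 gave 45 and no filter 241. The causes were not tested. Leaving out 1 library at a time gave 70 to 94, 19 to 31 and 30 to 46 genes in the 3 comparisons, and 2 to 11 lower genes in the first. The other settings (other pseudocounts, TMM scaling, edgeR, DESeq2, batch 2 alone, without 2 libraries that stand apart) kept each count within 1.5 times.

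Of 68 named genes tested 45 were called, 24 of the 45 lost the call in at least 1 of up to 22 settings, and none changed sign. With 3 or 4 libraries per group and 1 of each in batch 1, low transcripts limit the precision: at 3 reads the floor is up to 7.47 normalized counts.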
